A study of Mus musculus with 6 samples.

Results

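The genes of the hypoxia-inducible factor (HIF) pathway and of oxygen sensing were examined in the heart of hSRY-ON and hSRY-OFF mice. They comprised Hif1a, Epas1, Arnt, Egln1, Egln2, Egln3, Hif1an, Vhl, Ankrd37 and Ndrg1, and were found by an exact match of the gene symbol that the deposited table gives for each probe. All 10 genes were present, of 18138 gene symbols in the table, and 15 of its 25697 probes belonged to them. Gene expression was measured in the hearts of male FVB pups at postnatal day 6, with 1 BeadChip array per heart, for 3 pups of the hSRY-ON and 3 of the hSRY-OFF group. In hSRY-ON mice, the human SRY transgene (Signalox-hSRY, a single copy) was switched on in the one-cell embryo by Cre recombinase carried over from the oocyte of a Ddx4-Cre mother, and was then driven by the ubiquitous CAG promoter. The hSRY-ON mice taken for arrays lacked the Ddx4-Cre transgene itself. For hSRY-OFF, the methods describe mice with an unrecombined transgene, but control littermates are elsewhere described as carrying only Ddx4-Cre or no transgene, so it is uncertain whether the control hearts held the silent cassette. The responder is 1 transgenic line, and the heart was taken as whole tissue, in which fewer cells of a type and less RNA per cell cannot be told apart.

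HIF is a pair of proteins, an oxygen-regulated alpha subunit (encoded by Hif1a or Epas1) and a constant beta subunit (Arnt). When oxygen is present, prolyl hydroxylases encoded by Egln1, Egln2 and Egln3 modify the alpha subunit, the VHL protein recognises the modified form and it is degraded, while the asparaginyl hydroxylase encoded by Hif1an blocks its contact with coactivators. When oxygen is short, the alpha subunit persists, pairs with ARNT and binds hypoxia response elements, whose core reads ACGTG or GCGTG. Much of this control acts on the protein, which an expression array does not measure. Egln1, Egln3, Ankrd37 and Ndrg1 are themselves well-known transcripts that rise in hypoxic cells.

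The core sequence was searched on both strands of the RefSeq promoters (GRCm38.p6), each running from 250 bases before to 50 bases after a transcript's start. Promoters were held for 8 of the 10 genes. The core was present in 6 of them, Hif1a, Arnt, Egln1, Egln2, Egln3 and Ankrd37, and no match lay in the windows of Hif1an and Vhl. Of all 32851 promoters in that table, 43.8% held at least 1 match, so a match is a common property. The letters ACGTG are also part of CACGTG, which reads the same on both strands and is then counted on each. The matches on the gene's own strand, for the 3 hypoxia-induced genes with a promoter, are shown here, to let their letters and positions be compared with the values of these genes. Capitals mark the core, each sequence is read 5′ to 3′ on the minus strand, on which all 3 genes lie, and the name gives the distance of the first core base from the start.

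Ankrd37, 241 bases upstream, chr8:46000077-46000100: cccagcagtACGTGcctagctcgg
Ankrd37, 152 bases upstream, chr8:45999988-46000012: cactgcgcacGCGTGctgcggccgc
Ankrd37, 6 bases upstream, chr8:45999842-45999866: gtgtttgggtACGTGaggccgcagc
Egln1, 126 bases upstream, chr8:124949366-124949390: ccggcccgccGCGTGcgcgcggccc
Egln1, 68 bases upstream, chr8:124949308-124949332: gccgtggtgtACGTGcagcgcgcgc
Egln3, 229 bases upstream, chr12:54204089-54204113: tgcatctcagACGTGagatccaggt

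The arrays detected between 47.2% and 51.3% of their probes at a detection p-value under 0.05 against negative-control beads. Mean intensity before normalization was lowest in hSRY-OFF replicate 3, at 631, and 723 to 939 on the others. After background correction and quantile normalization, tests were run for the 12970 probes that 3 or more of the 6 arrays had detected. Fold changes are differences on the log2 scale, positive where hSRY-ON was higher. They were tested with limma (two-sided), and adjusted p-values (Benjamini-Hochberg) under 0.05 count as passing. The hearts of a group are described as biological replicates, but litters are not stated. The p-values set a group difference against the spread between hearts within the groups, with variances moderated across the tested probes. An effect of litter could not be examined, and 3 arrays per group limit the precision.

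None of the HIF pathway genes passed this test. Of the 15 probes, 11 were tested, for 8 of the 10 genes, and 0 were differentially expressed in limma, against 27.5% of all tested probes (13.8% higher and 13.7% lower in hSRY-ON). At an unadjusted p under 0.05 there were 3, both probes of Epas1 and 1 of Egln3, or 3 of 11 against 40.3% of all tested probes. The log2 fold change was below 0 for 9 probes and above 0 for 2, those of Arnt and Ndrg1, with a median of -0.24 against -0.0046 for all tested probes. The hSRY-ON and hSRY-OFF hearts did not overlap for 1 of the 11, the dimmer Epas1 probe, against 45.2% of all tested probes. The standard errors ranged from 0.14 to 0.38, where the median of all tested probes was 0.16.

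**Figure D1:**
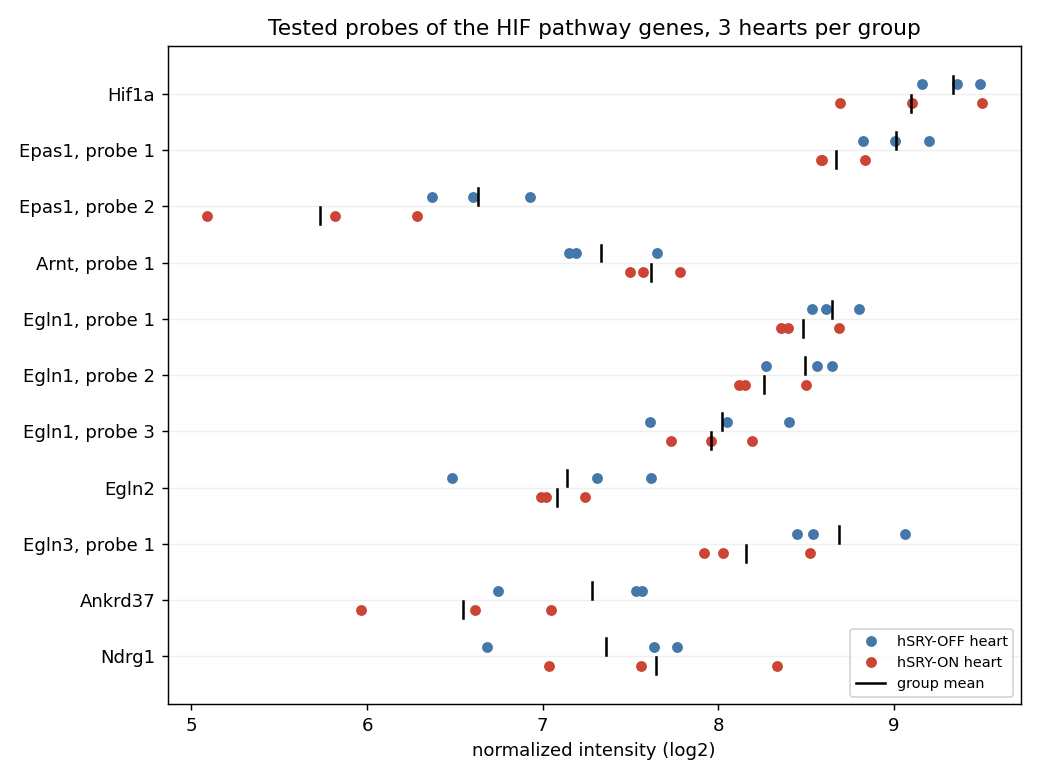
Normalized log2 intensity of the 11 tested probes of the HIF pathway genes, with 1 point per heart (3 hSRY-OFF, 3 hSRY-ON) and a black bar at each group mean; probes of a gene are numbered from the brightest. The groups overlap in each row except the one for the dimmer probe of Epas1.

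Neither gene of an alpha subunit passed the adjusted threshold, and their hearts were spread differently. Hif1a (probe ILMN_2852034), which encodes the alpha subunit present in nearly all cells, had log2 intensities of 9.49, 9.36 and 9.16 in hSRY-OFF replicates 1 to 3 and of 8.70, 9.10 and 9.50 in hSRY-ON replicates 1 to 3. The hSRY-ON hearts thus spanned the whole hSRY-OFF range and more, with the lowest and the highest value of the 6 among them. The log2 fold change was -0.24 (standard error 0.21, 95% interval -0.73 to 0.25, limma adjusted p = 0.439).

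Epas1, which encodes HIF-2 alpha and is known for its expression in endothelium, was measured by a brighter and a dimmer probe. The brighter probe (ILMN_3052632) read 9.01, 8.82 and 9.20 in hSRY-OFF and 8.59, 8.84 and 8.58 in hSRY-ON hearts. Its groups overlapped only by hSRY-OFF replicate 2 lying just below hSRY-ON replicate 2, and the log2 fold change was -0.34 (standard error 0.14, interval -0.68 to -0.0061, limma adjusted p = 0.118). The dimmer probe (ILMN_3129160) read 6.93, 6.61 and 6.37 in hSRY-OFF and 5.82, 5.09 and 6.29 in hSRY-ON hearts. Every hSRY-ON heart was below every hSRY-OFF heart, and in hSRY-ON replicate 2 the probe was not well above background. Its log2 fold change, -0.90, was the largest in size among the tested probes of the pathway and missed the threshold (standard error 0.30, interval -1.60 to -0.21, limma adjusted p = 0.0583). It passed under 5 of the 15 alternative settings that gave it a value, among them without hSRY-ON replicate 3, where it was -1.18 (limma adjusted p = 0.0228). Both Epas1 probes had a negative sign under each alternative run. Endothelial markers moved in both directions beside it. Of 7 tested, 3 (42.9%) were lower (Cdh5, Tek and Cldn5) and 1 (14.3%) was higher (Emcn). Among all tested genes 13.9% were lower and 14.9% higher. The part of these markers in the Epas1 values was not tested.

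Arnt, the gene of the shared beta subunit, also overlapped between the groups. Probe ILMN_2728802 read 7.15, 7.19 and 7.65 in hSRY-OFF and 7.57, 7.78 and 7.50 in hSRY-ON hearts. The overlap came from hSRY-OFF replicate 3, the dimmest array, which lay among the hSRY-ON values. The log2 fold change was 0.29 (standard error 0.17, interval -0.11 to 0.68, limma adjusted p = 0.246). The second Arnt probe (ILMN_2607563) was above background on no array.

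Of the prolyl hydroxylases, Egln1 (also known as PHD2, the main hydroxylase of HIF-1 alpha in most cells) was measured by 3 tested probes, none of which passed. Its brightest probe (ILMN_2617090) read 8.53, 8.62 and 8.80 in hSRY-OFF and 8.40, 8.69 and 8.36 in hSRY-ON hearts, and the difference was -0.17 on the log2 scale (standard error 0.14, interval -0.50 to 0.16, limma adjusted p = 0.414). The other two probes of Egln1 gave -0.24 (ILMN_2617087) and -0.06 (ILMN_2617086), with adjusted p of 0.308 and 0.860 from limma. The 3 probes ordered the hearts alike in part. hSRY-OFF replicate 3 was the highest control and hSRY-ON replicate 2 the highest transgenic heart on each of them. The probes share their RNA samples and are not replicates of each other. The upper interval ends of the 3 probes, 1.12-, 1.10- and 1.36-fold higher in hSRY-ON, and the lower ends, 1.41-, 1.53- and 1.49-fold lower, bound the change of Egln1 that these arrays allow.

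Egln2, which encodes PHD1, read 7.31, 7.62 and 6.48 in hSRY-OFF and 6.99, 7.24 and 7.02 in hSRY-ON hearts (ILMN_2781805). The controls held both the highest and the lowest value, and their SD of 0.59 was above the 0.14 of the hSRY-ON hearts (n = 3 each). The log2 fold change was -0.05 (standard error 0.27, interval -0.69 to 0.58, limma adjusted p = 0.906). Its sign turned to 0.03 without hSRY-OFF replicate 1 and to 0.19 without replicate 2.

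Egln3, the hydroxylase gene PHD3 and the most hypoxia-inducible of the 3, read 8.54, 9.06 and 8.45 in hSRY-OFF and 8.03, 8.52 and 7.92 in hSRY-ON hearts (ILMN_2605819). In each group replicate 2 was the highest, and hSRY-ON replicate 2 lay between the 2 lower controls. The log2 fold change was -0.53 (standard error 0.22, interval -1.04 to -0.02, limma adjusted p = 0.113), or 1.44-fold lower in hSRY-ON. With the replicate number as a block it passed (limma adjusted p = 0.0343), though the numbers are not known to pair the hearts, and without hSRY-OFF replicate 2 it was -0.34. The other Egln3 probe (ILMN_2782101) was above background on no array.

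The asparaginyl hydroxylase gene Hif1an and the tumor suppressor gene Vhl had 1 probe each, and both were above background on no array. The Hif1an probe (ILMN_2600104) had intensities, before any correction, of 140, 145 and 118 in hSRY-OFF and of 137, 135 and 133 in hSRY-ON hearts. The Vhl probe (ILMN_2518546) had 146, 179 and 135 in hSRY-OFF and 139, 141 and 143 in hSRY-ON hearts. The lowest intensity of any detected probe was between 161 and 200 on the control arrays and between 164 and 172 on those of hSRY-ON hearts. These probes give no level for either transcript at this sensitivity, and a difference between the groups was not detectable.

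**Figure D2:**
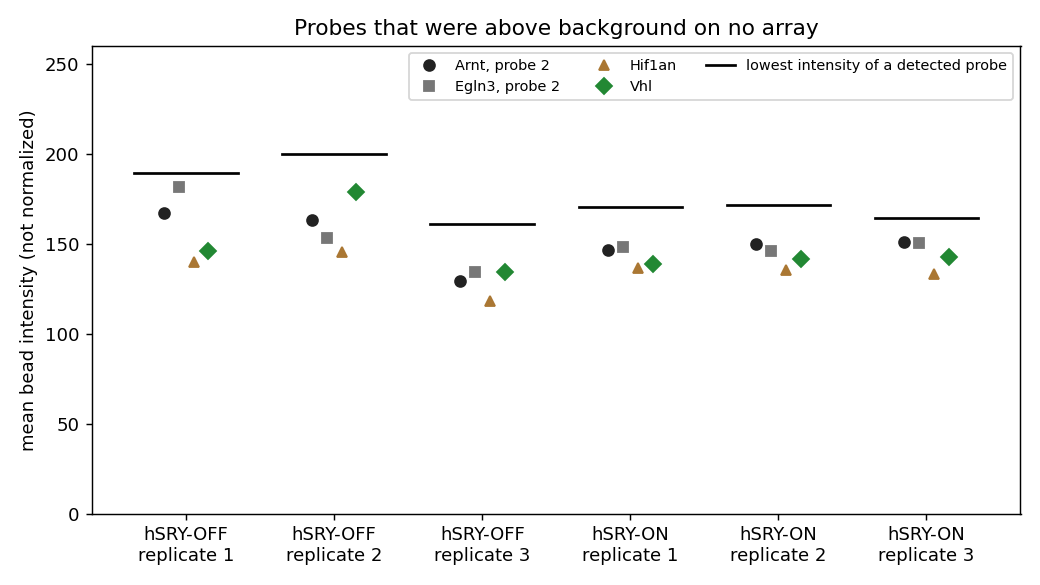
Mean bead intensity, not normalized, of the 4 probes of Arnt, Egln3, Hif1an and Vhl that were not tested, on each of the 6 arrays; the black lines mark the lowest intensity of a detected probe on that array. Each point lies below the line of its array.

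Of the hypoxia-induced members, Ankrd37, a short ankyrin repeat gene whose promoter holds the 3 core matches printed above and 1 on the opposite strand, did not pass. It read 7.57, 7.53 and 6.75 in hSRY-OFF and 7.05, 6.62 and 5.97 in hSRY-ON hearts (ILMN_2595857). The overlap was between hSRY-OFF replicate 3 and hSRY-ON replicate 1, and the SD was 0.46 in hSRY-OFF and 0.54 in hSRY-ON hearts (n = 3 each). The log2 fold change was -0.74 (standard error 0.32, interval -1.47 to 0.0024, limma adjusted p = 0.125), or 1.67-fold lower. It passed under 3 of the 16 alternatives, with array weights, without normalization between arrays and with the replicate number as a block.

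Ndrg1, a gene of growth arrest and stress, had the largest standard error of the tested probes. It read 7.64, 7.77 and 6.68 in hSRY-OFF and 7.03, 8.34 and 7.56 in hSRY-ON hearts (ILMN_1250195). The difference between the lowest and the highest heart was larger within each group than between the group means, and the log2 fold change was 0.28 (standard error 0.38, interval -0.61 to 1.18, limma adjusted p = 0.622). Without hSRY-OFF replicate 3 its sign turned, at -0.06, and likewise without hSRY-ON replicate 2, at -0.0658. Among the other genes of its family, Ndrg2, which is abundant in heart muscle, was down-regulated by 0.90 on the log2 scale (standard error 0.16, limma adjusted p = 0.00546), while Ndrg3 and Ndrg4 had log2 fold changes of 0.11 and 0.14 and did not pass.

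**Figure D3:**
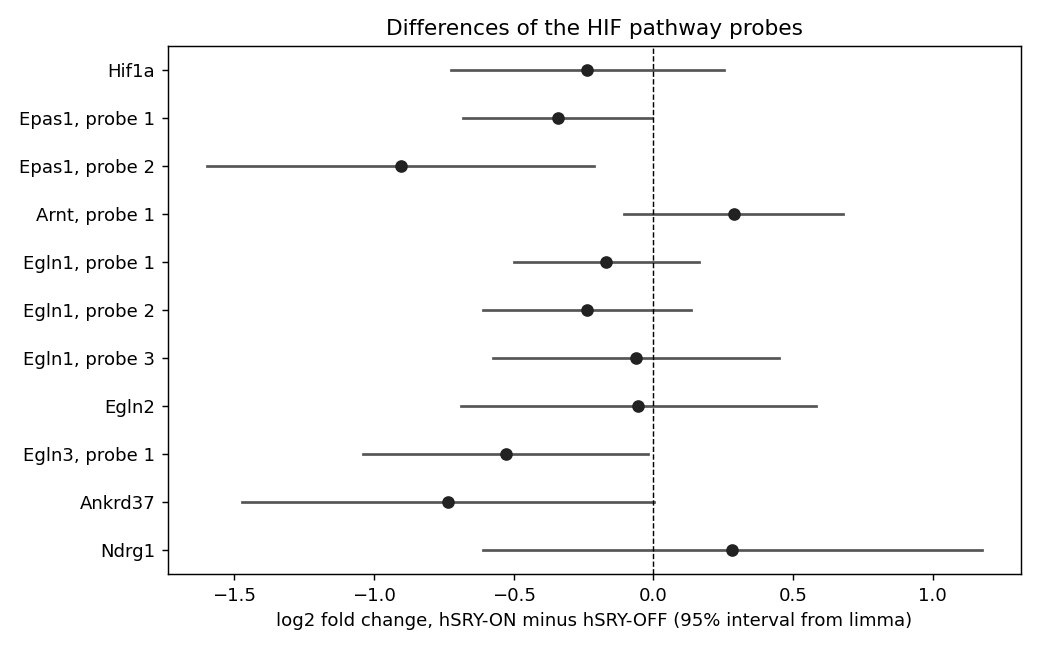
Log2 fold change of the 11 tested HIF pathway probes, hSRY-ON minus hSRY-OFF, as a point with its 95% interval from limma; the dashed line marks no difference. The intervals of both Epas1 probes and of the Egln3 probe end below 0, before adjustment over the 12970 tested probes.

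A list of partner genes held 40 further genes, for proteins that act on or with HIF and for other bHLH-PAS proteins. The latter are relatives of the HIF subunits and not all of them act with HIF. Of the 40 genes, 39 were on the array and 30 were tested, 1 probe for each gene. Of these, 2 rose and 3 fell in hSRY-ON hearts, or 16.7% against 28.8% of all tested genes (14.9% up and 13.9% down), and their median log2 fold change was -0.04 against 0.0026 for all tested genes. Leaving out single hearts gave counts of 2 to 6. It was 2 without hSRY-OFF replicate 1 or without replicate 2, and 3 without hSRY-ON replicate 1. None of the 3 tested subunits of the VHL ubiquitin ligase, Tceb1, Tceb2 and Rbx1, passed, also at an unadjusted p under 0.05 (0 in limma).

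Among the coactivators and their inhibitors, 5 were tested and the 2 that passed belonged to the Cited family, whose proteins bind the CBP and p300 coactivators. In a list this short, 2 of 5 (40%) stands against 28.8% of all tested genes. Cited2, which encodes a protein that competes with HIF-1 alpha for p300, read 7.31, 6.72 and 6.56 in hSRY-OFF and 7.75, 8.57 and 8.01 in hSRY-ON hearts. All hSRY-ON hearts were above the controls, and the log2 fold change was 1.25 (standard error 0.26, limma adjusted p = 0.0114). Cited4 read 11.01, 10.81 and 10.96 in hSRY-OFF and 9.97, 10.10 and 10.06 in hSRY-ON hearts, without overlap and in the opposite direction (-0.88, standard error 0.12, limma adjusted p = 0.00182). Ep300 itself, at 0.17, did not pass. Both Cited calls held under all 16 alternatives.

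Of the other bHLH-PAS genes, 6 of 13 were tested and 1 passed (16.7%, against 28.8% of all tested genes). The one that passed was Hif3a, whose product is a further alpha subunit with splice forms that inhibit HIF. Its tested probe was above background on no control array and in each of the 3 hSRY-ON hearts, at 5.49, 6.35 and 5.31, and it was at least 1.22-fold higher in hSRY-ON (limma adjusted p = 0.0198). This probe met the detection filter through the hSRY-ON hearts alone, the group where it was higher. Under the 2 stricter detection filters it had no value, which left 14 alternatives. Hif3a is 1 of the 2 partner genes counted as higher. A second Hif3a probe, detected on 1 array of each group and therefore not tested, had mean log2 intensities of 5.38 in hSRY-OFF and 5.21 in hSRY-ON hearts, the other way round. The bound of 1.22-fold takes, on each hSRY-OFF array, the lowest signal of a detected probe or the tested probe's own, whichever was higher. The Hif3a call was lost without hSRY-OFF replicate 1 (adjusted p = 0.0549) or replicate 2 (adjusted p = 0.0584), both from limma. Of 16 other regulators of HIF protein, such as Siah ubiquitin ligases, chaperones and deubiquitinases, 2 (12.5%) were down-regulated, against 13.9% of all tested genes. Usp20, which encodes a deubiquitinase of HIF-1 alpha, changed by -0.47 (limma adjusted p = 0.03), and Wdr83, a scaffold gene also called Morg1 and listed as 1500041N16Rik, by -0.61 (standard error 0.16, limma adjusted p = 0.0309). The latter call was lost without hSRY-OFF replicates 1 or 2 or hSRY-ON replicates 1 or 3, with values from -0.65 to -0.47, and without normalization between arrays, at -0.73. Without background correction it passed, at -0.37. The Usp20 call was not followed under the alternatives.

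Genes linked to the response to hypoxia, not all of them induced by it, were drawn up from general knowledge without the members above. They numbered 72, with 67 on the array and 52 tested. Of these, 22 rose (42.3%) and 7 fell (13.5%) in hSRY-ON hearts, or 55.8% in all, against the 14.9%, 13.9% and 28.8% of all tested genes. Their median log2 fold change was 0.22. Leaving out single hearts gave 19 to 25, with 19 reached without hSRY-OFF replicate 1 and again without replicate 2, where 17.3% and 18.8% of all probes passed. The list was drawn up with results of these arrays known, and many of its genes also respond to other signals.

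**Figure D4:**
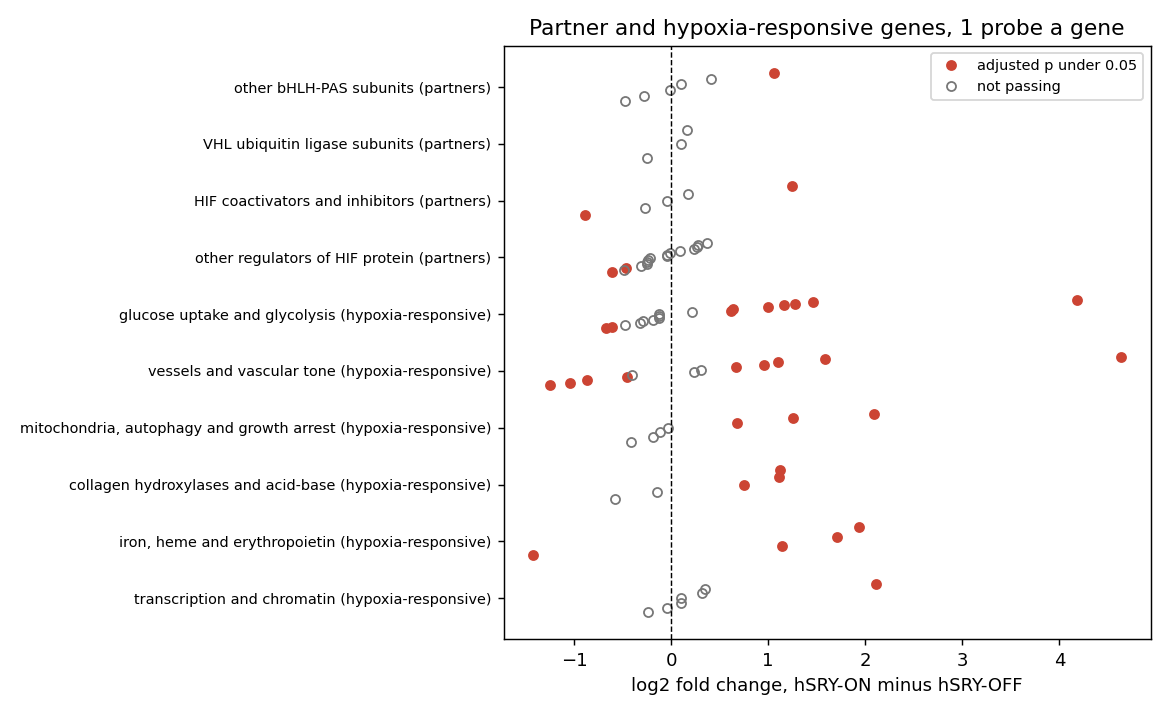
Log2 fold change, hSRY-ON minus hSRY-OFF, of the 30 tested partner genes and the 52 tested hypoxia-responsive genes, in rows by list, with 1 point per gene; filled points passed an adjusted p under 0.05 in limma. The points right of 3 are Aldoc and Pgf, and each list of hypoxia-responsive genes holds points on both sides of 0.

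In glucose uptake and glycolysis, 17 genes were tested, 7 up- and 2 down-regulated (41.2% and 11.8%), and the median log2 fold change was -0.12. Among all tested genes 14.9% were up- and 13.9% down-regulated. The glucose transporters Slc2a1 and Slc2a3 both rose. Slc2a1, the transporter of the fetal heart and a classic HIF-1 target, read 9.17, 8.59 and 9.11 in hSRY-OFF and 10.19, 10.77 and 9.73 in hSRY-ON hearts, without overlap (1.27, standard error 0.28, limma adjusted p = 0.0129). Slc2a3 changed by 1.46, and both tested probes of Pfkp, the platelet isoform of phosphofructokinase, passed, the less bright one at 1.14. Aldoc, the brain-type aldolase, had the largest increase at 4.18 (standard error 0.17), and Aldoa, the muscle-type aldolase, the largest decrease at -0.67. Without hSRY-OFF replicates 1 or 2, Aldoa no longer passed, at -0.58 and -0.62. The probe that stands for the lactate exporter gene Slc16a3 was above background on no hSRY-OFF array and at least 1.48-fold higher in hSRY-ON (limma adjusted p = 0.0028). That probe, too, met the detection filter through the hSRY-ON hearts alone and had no value under the 2 stricter detection filters. The other tested Slc16a3 probe, detected on 1 hSRY-OFF and 2 hSRY-ON arrays, had a log2 fold change of 0.07 and did not pass. Ldha, Pgk1 and Pdk1, at -0.13, -0.32 and 0.21, did not pass. The brightest probe of Tpi1 did not pass either, and its other 2 probes passed in opposite directions, at -0.72 and 0.54.

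Genes of vessels and vascular tone held 5 up- and 4 down-regulated members among 12 tested, with a median of 0.27. These are 41.7% and 33.3%, against 14.9% and 13.9% of all tested genes. Vegfa, the main angiogenic growth factor that HIF induces, read 10.29, 10.62 and 9.72 in hSRY-OFF and 8.72, 9.30 and 8.88 in hSRY-ON hearts. The brighter probe was thus lower in all hSRY-ON hearts (-1.24, standard error 0.25, limma adjusted p = 0.00969), whereas its other tested probe, at -0.44, did not pass. Cxcr4, the receptor of the chemokine Cxcl12, also fell (-1.04, adjusted p = 0.0217 from limma), a call lost without hSRY-OFF replicates 1 or 2 or hSRY-ON replicates 1 or 3, at -1.03 to -0.82. Pgf, a relative of Vegfa, rose by 4.64 (standard error 0.26), and of the control arrays 2 had it above background. Angpt2, which destabilises vessels, rose by 1.10, and the vasoconstrictor gene Edn1 by 1.58. Edn1 lost its call without hSRY-OFF replicate 1 (1.41) or replicate 2 (1.64). For Cxcl12 the brightest probe, at 0.31, did not pass, while 2 other probes rose by 1.20 and 1.27.

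The remaining hypoxia-responsive groups were smaller, with 4 to 7 tested genes each. Their counts stand against 28.8% of all tested genes (14.9% up and 13.9% down), and shares of so few genes are coarse. Of 7 tested genes of mitochondria, autophagy and growth arrest 3 were up-regulated, among them Igfbp3, a binding protein of insulin-like growth factors, at 2.09 (standard error 0.28, limma adjusted p = 0.00177), and Ddit4, an inhibitor of mTORC1 signaling, at 1.25 (standard error 0.39, limma adjusted p = 0.0475). The Ddit4 call was lost without any one of the hSRY-OFF hearts or without hSRY-ON replicate 1, with values of 1.13 or more. It was also lost without the filter on dim probes, with a variance trend and with the replicate block. Without hSRY-ON replicate 2 the value was 0.77 and passed. Bnip3 was above background on no array, and Bnip3l, at -0.11, did not pass. Of 5 genes of collagen hydroxylation and acid-base balance 3 were up-regulated, with Plod2, a collagen lysyl hydroxylase, at 1.12 and the crosslinking oxidase Lox at 1.11. The carbonic anhydrase genes Car9 and Car12 were above background on no array at their brightest probes. All 4 tested genes of iron and heme passed. The iron carrier Trf rose by 1.71, ceruloplasmin (Cp) by 1.93 and heme oxygenase 1 (Hmox1) by 1.15, while the transferrin receptor gene Tfrc fell by 1.42 on the log2 scale, with its other probe at -1.51. Of 7 genes of transcription and chromatin, the one that passed was Stc2, which encodes a secreted glycoprotein, at 2.11.

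**Figure D5:**
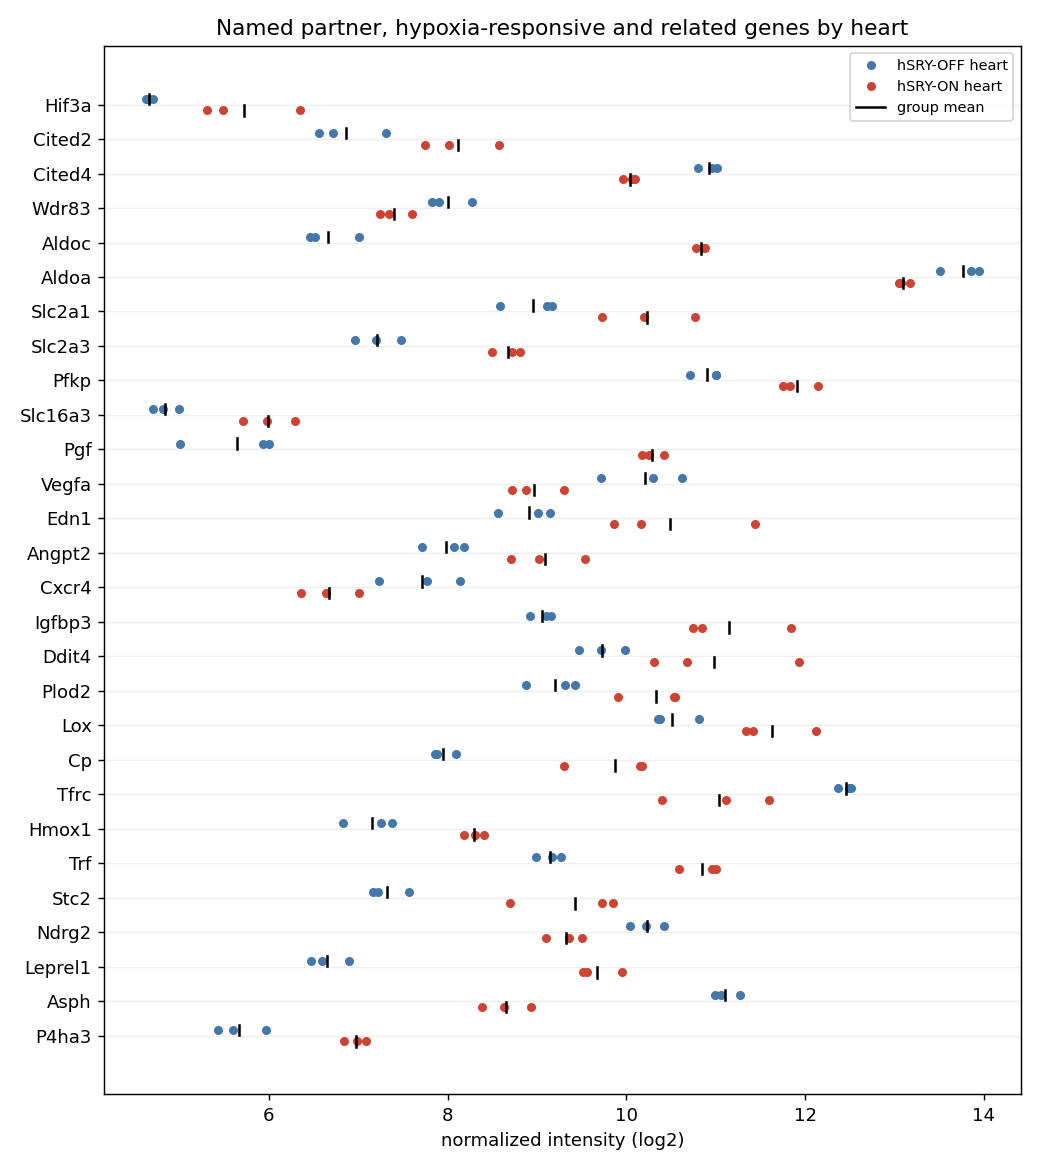
Normalized log2 intensity of the named partner, hypoxia-responsive and related genes, with 1 point per heart and a black bar at each group mean (n = 3 hearts per group). The hSRY-ON and hSRY-OFF hearts do not overlap in any row, and for Hif3a and Slc16a3 the hSRY-OFF points are not well above background. The rows were chosen among genes that passed, in part by this lack of overlap, which 45.2% of all tested probes also had.

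The EGLN proteins belong to a larger family of dioxygenases that need oxygen and 2-oxoglutarate. Other oxygen-dependent dioxygenases were examined too, nearly all of them of this family. This list overlaps those above, with P4ha1, P4ha2, Plod1, Plod2, Kdm3a, Kdm4b, Kdm4c, Jmjd6 and Ado. The increases of P4ha2 and Plod2 were thus already counted among the hypoxia-responsive genes. Of 28 genes, 22 were tested, 6 up- and 1 down-regulated, or 31.8% against 28.8% of all tested genes, with a median log2 fold change of 0.28. The increases were mostly those of collagen hydroxylases. Leprel1, a prolyl 3-hydroxylase gene, read 6.89, 6.47 and 6.59 in hSRY-OFF and 9.52, 9.95 and 9.56 in hSRY-ON hearts (3.02, standard error 0.17, limma adjusted p = 6.04e-05). P4ha3 changed by 1.31, P4ha2 by 0.75 and Lepre1 by 0.66. P4ha1, at -0.58, did not pass. Asph was down-regulated by its brightest probe (-2.46, standard error 0.17, limma adjusted p = 0.000127), whereas its 8 other tested probes ranged from -0.53 to -0.24 and 1 of them passed. The Asph locus also encodes junctin, a calcium-handling protein of muscle, from other transcripts. The tested histone demethylases of the list other than Kdm5b (0.68) did not pass.

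Markers of the cells that a heart sample could hold were set beside these results. Cardiomyocyte markers were detected in both groups, and 3 of 7 tested were lower in hSRY-ON hearts. These were Myh6 (-0.51 on the log2 scale, its other probe -1.97), Tnni3 (-1.13) and Ryr2 (-1.09). Myl3, Myl2, Nppa and Actc1 did not pass, at -0.03, -0.02, 0.14 and -0.20. Myl3, Myl2 and Nppa were among the brightest probes, where quantile normalization leaves little room for a difference. All 3 hSRY-ON hearts had the same value for Myl2 (15.37) and for Nppa (15.42), so these markers say little about a change. Of 7 tested fibroblast markers 1 was higher (14.3%). Of 7 of smooth muscle and pericytes 2 were higher, and of 7 of red blood cells 2 were lower (28.6% each). Among all tested genes 14.9% were higher and 13.9% lower, the background for each count of markers here. Of 7 tested macrophage markers 5 were higher, with summed normalized intensities of 3069 to 4093 in hSRY-OFF against 7188 to 7279 in hSRY-ON hearts. Lyz2 was the brightest of them in each heart and weighs most in these sums. Emr1, at -0.21, and Csf1r, at 0.40, did not pass, while another Csf1r probe passed at 1.30. Of the skeletal muscle markers Myh1, Myh2, Myh4 and Tnnt3 were above background on no array. Of the 4 tested, 3 were lower and 1 was higher. The latter was Actn3, whose brightest tested probe was detected in hSRY-ON hearts only. The sums over the list were 3470 to 5065 among controls and between 633 and 872 in hSRY-ON hearts. The brightest marker in each heart was Acta1, at 12.14, 11.61 and 11.45 in hSRY-OFF and 8.96, 7.93 and 8.56 in hSRY-ON (log2). The fall of the sums thus mostly follows this 1 gene and is not a measure of the amount of skeletal muscle. Of 4 tested fat markers 2 were higher. The sums of fat markers overlapped, at 2007 to 2756 and 1221 to 3777, and Plin, Lep and Cidec were above background on no array. The part of any of these cells in the values of the hypoxia-responsive genes was not tested.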

How the data were processed

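The authors hybridized labelled cRNA from total heart RNA to MouseRef-8 v2.0 BeadChips and deposited mean bead intensities by probe and heart, neither normalized nor background-subtracted. The deposited detection p-values compare a probe with the negative-control beads on the same array. The summarising software is not given in the sources used here, and no genome build enters the values. The submitters' notes name limma, and the methods name TCC without its settings. Groups were taken from the sample titles, and no pair of arrays held identical values.

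Intensities were processed with neqc of limma 3.58.1 in R 4.3.3 (background inferred from the detection p-values, offset of 16, quantile normalization, log2). Probes detected at p under 0.05 on at least 3 of 6 arrays were fitted with lmFit and eBayes, with group as the only term, and the Benjamini-Hochberg adjustment covered the 12970 probes tested. The steps were tested on simulated data. For genes of the lists, the tested probe with the highest mean represented the gene. All probes of the 10 members are named. Of each other list the text names the largest increase, the largest decrease and further calls of at least 1 on the log2 scale without overlap of the groups. Genes and probes outside this rule were named after their values were seen, and were not followed under the alternatives. The members and lists were chosen with earlier results of these data known. Levels of single genes were not compared with each other, and marker levels were summed over probes only to compare hearts. Figures were drawn with matplotlib 3.10.9. Alternatives changed the background correction, normalization, probe filter, variance model, array weights, replicate block and hearts included.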

Additional observations from a re-analysis of the deposited data

How the results depend on the processing

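The 11 tested probes of the HIF pathway genes gave 175 values under 16 alternatives, of which 159 kept their sign and stayed above the threshold, 9 kept their sign and passed it, and 7 changed sign. The number of differentially expressed probes, 0 as processed, became 1 with normexp and an offset of 50 (where 30.0% of all tested probes passed) or with a variance trend and robust estimation (31.0%), and 2 without normalization between arrays (14.6%), with array weights (38.4%) or with the replicate number as a block (21.9%). With each heart left out in turn it was 0 to 1, where 17.3% to 28.6% of all tested probes passed. The probes that passed were the dimmer Epas1 probe, Ankrd37 and, under the replicate block, Egln3 (adjusted p of 0.0343 from limma) and Ankrd37. Between 8 and 10 probes had a negative sign under each setting. Ndrg1 turned to -0.0551 with array weights and ranged from -0.0658 to 0.59 with a heart left out. Under the same omissions Egln2 ranged from -0.38 to 0.19 and the dimmest Egln1 probe from -0.27 to 0.13. The partner genes numbered 5 as processed, 3 (without normalization between arrays) to 7 (with a variance trend) over the settings and 2 to 6 with a heart left out. The hypoxia-responsive genes numbered 29 as processed, 22 (without normalization) to 32 (with array weights) over the settings and 19 to 25 with a heart left out. Without background correction the differences of dim probes shrank by over 1.5 times, to -0.31 for the dimmer Epas1 probe, -0.34 for Ankrd37, 0.35 for Hif3a and Slc16a3, 0.48 for P4ha3 and 0.70 for Cited2. Without normalization all tested probes had a median difference of -0.12 (log2).

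The replicate numbers in the labels are not said to pair animals. Same-numbered hearts had deviations from their group means that correlated at -0.02, 0.04 and -0.07 across probes, which are not independent, and 2 of the 6 arrays correlated best with their own number, so the block was kept as an alternative. With it the calls numbered 4 partner genes and 24 hypoxia-responsive genes, and Edn1 and Ddit4 lost their calls. Of the 28 named other genes, 22 kept their call under every alternative that gave them a value, and none changed sign. The BeadChip as a block was not run, since the column names give no chip. The cause of these changes was not tested.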
